A study of Homo sapiens with 6 samples.

Results

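Matrix metalloproteases (MMPs), the related ADAM and ADAMTS metalloproteases and the genes that restrain or assist them were followed by sequencing of messenger RNA from HGC-27, a long-established line grown from a human gastric carcinoma. The genes were taken by symbol: every numbered MMP, TIMP, ADAM and ADAMTS gene except ADAM10 and ADAM17, together with PLAU, PLAUR, PLAT, SERPINE2, RECK, BSG and HPSE. This gave 73 of the 62703 rows of the count table, since ADAM6 had 2 rows. The shGXYLT2 group held 3 libraries of cells stably carrying a short hairpin RNA against GXYLT2, labelled as GXYLT2 knockdown. The shControl group held 3 libraries of cells carrying a control hairpin, labelled as wild type. Both groups grew in RPMI medium with 10% fetal bovine serum. The labels give neither the hairpin sequence nor the number of clones behind each line. They also do not say that the libraries of a group came from separate cultures, so every p-value reflects the spread among libraries, which may be technical. Effects of the hairpin on other targets cannot be told apart from those of the knockdown. In bulk RNA, fewer cells expressing a gene and less of its RNA per cell cannot be told apart either.

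MMPs are zinc-dependent enzymes that cut collagens and other proteins of the extracellular matrix, and carcinoma cells use them to pass through basement membrane. They are made as inactive precursors and are blocked by the tissue inhibitors of metalloproteases, the TIMPs. Membrane-anchored MMP14 and the soluble inhibitor TIMP2 together form the platform on which precursor MMP2, a gelatinase, is activated. ADAMs are membrane proteins that release the outer parts of other membrane proteins, and ADAMTS enzymes are secreted proteases that process procollagens and cut proteoglycans.

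Library totals were 22187998 to 24898399 estimated counts in shGXYLT2 and 17291103 to 22540005 in shControl. GXYLT2 itself was at 5.27, 6.27 and 5.34 CPM (counts relative to the library total after TMM scaling) in the shGXYLT2 libraries, against 20.7, 22.8 and 20.2 CPM in the shControl libraries. The log2 fold change of shGXYLT2 over shControl was -1.91 (SE 0.109, edgeR adjusted p = 6.3e-10). The labelled cell type was set beside lists of markers. Gastric and epithelial markers were low, while VIM and the summed fibroblast markers were abundant. These markers alone thus do not bear out a gastric epithelial type. Of 6 gastric markers 4 (GKN1, MUC5AC, TFF1 and TFF2) had 0 counts in all libraries. The gastric list summed to 3.38 to 5.59 CPM in shGXYLT2 and 1.97 to 2.48 CPM in shControl, with MUC6 higher in shGXYLT2 (edgeR adjusted p = 0.0029). The 5 epithelial markers (EPCAM, CDH1, KRT8, KRT18 and KRT19) summed to 3.79 to 4.74 CPM in shGXYLT2 and 4.28 to 5.32 CPM in shControl. The mesenchymal intermediate filament gene VIM averaged 2526 CPM in shGXYLT2 and 2669 CPM in shControl. Of the 4 mesenchymal markers FN1, which encodes fibronectin, rose (78.7 CPM in shGXYLT2 and 38.7 CPM in shControl). ZEB1 of that list was lower, at 77.5 CPM in shGXYLT2 and 94.3 CPM in shControl, without passing (edgeR adjusted p = 0.19). CDH2, also of that list, had at most 5 counts in a library and was not tested. Leukocyte markers summed to at most 1.46 CPM in shGXYLT2 and 1.79 CPM in shControl, and endothelial markers to at most 0.884 CPM in shGXYLT2 and 1.1 CPM in shControl. Genes used as fibroblast markers were abundant, with a sum of 2126 to 2253 CPM in shGXYLT2 and 1932 to 2014 CPM in shControl, and 2 of 5, DCN and LUM, rose (250 and 240 CPM in shGXYLT2, against 186 and 180 CPM in shControl). PDGFRB of the same list was lower, at 0.673 CPM in shGXYLT2 and 1.28 CPM in shControl, without passing (adjusted p = 0.081), and COL3A1 and PDGFRA did not pass either. Of 3 nuclear RNAs used as a sign of RNA quality (MALAT1, NEAT1 and KCNQ1OT1) 0 were called, too few genes to show equal quality. Their sum was 639 to 706 CPM in shGXYLT2 and 717 to 1073 CPM in shControl, without overlap. MALAT1 was lower in shGXYLT2 without overlap (log2 fold change -0.42, SE 0.135, edgeR adjusted p = 0.11), while NEAT1 and KCNQ1OT1 overlapped. All 3 RNAs were highest in shControl replicate 3. The part of these differences in the results on proteases was not tested.

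Of the 73 genes, 36 had enough counts to be tested. Among these 4 rose in shGXYLT2 (MMP14, TIMP2, ADAMTS19 and ADAMTS3) and 3 fell (MMP2, TIMP3 and SERPINE2), by edgeR's quasi-likelihood test at a Benjamini-Hochberg adjusted p below 0.05 over 15693 genes. The 7 called genes were 19.4% of those tested, where 12.2% of all tested genes were called. The 4 rises were 11.1%, against 5.31% of all tested genes, and the 3 falls were 8.33%, against 6.84%. The groups of libraries did not overlap in 12 of the 36 genes (33.3%), against 30.4% of all tested genes. The median log2 fold change of shGXYLT2 over shControl was -0.063 over the 36 genes and -0.006 over all tested genes, with changes in both directions. Without shControl replicate 1, 2 or 3 the rises numbered 1, 2 and 2.

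**Figure D1:**
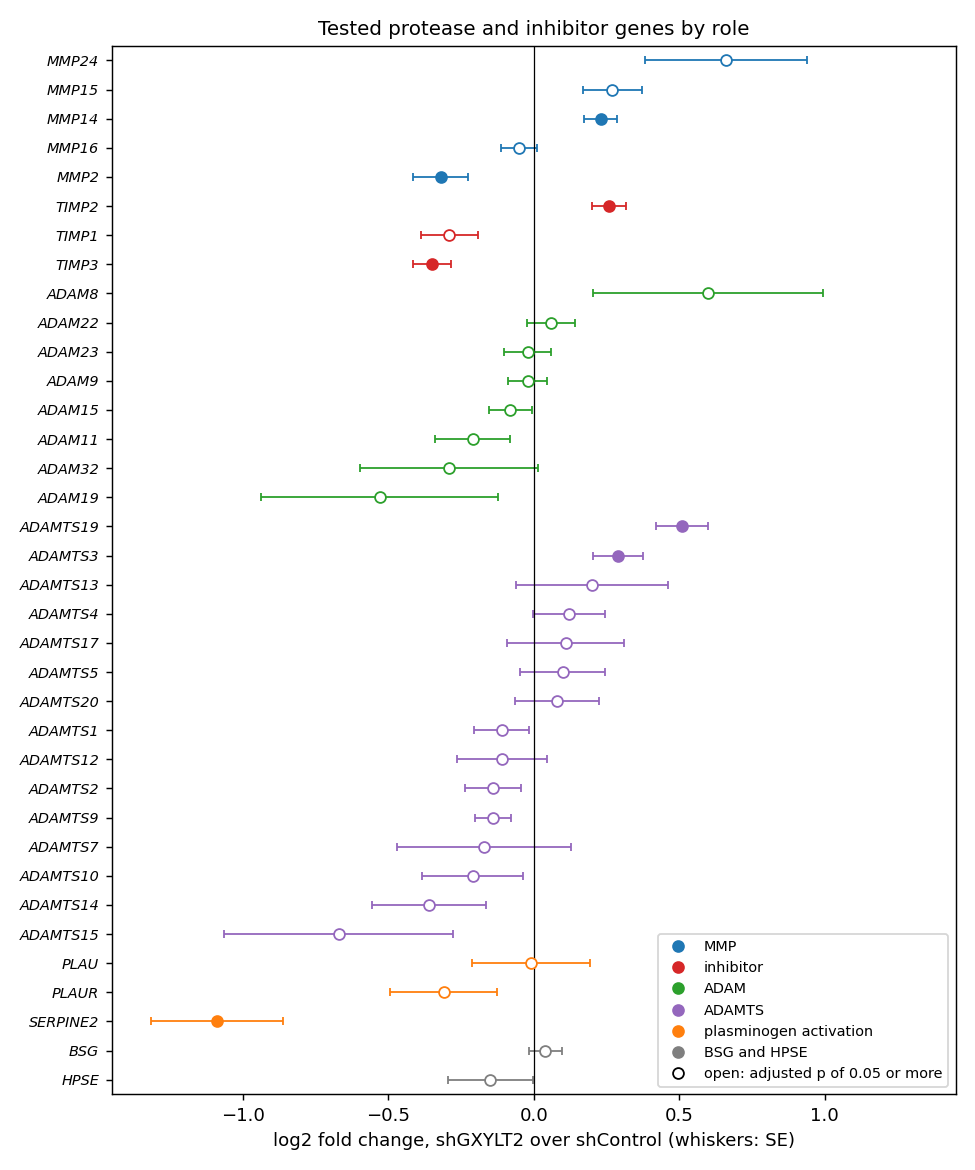
Log2 fold change of shGXYLT2 over shControl (horizontal axis, whiskers SE) for the 36 tested genes, coloured by role, with filled points for an adjusted p below 0.05. The filled points are MMP14, TIMP2, ADAMTS19 and ADAMTS3 to the right of 0 and MMP2, TIMP3 and SERPINE2 to the left, the last at -1.09.

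The promoters of MMP14, which rose, and of TIMP3, which fell, are shown because the pair of genes moved in opposite directions. Each line gives the 250 bases before the start of the RefSeq transcript (GRCh38.p14, plus strand), with every GGGCGG, the core of the GC box bound by SP1, in capitals in either orientation. The stretches are chr14:22836335-22836584 for MMP14 and chr22:32801455-32801704 for TIMP3.
MMP14 promoter: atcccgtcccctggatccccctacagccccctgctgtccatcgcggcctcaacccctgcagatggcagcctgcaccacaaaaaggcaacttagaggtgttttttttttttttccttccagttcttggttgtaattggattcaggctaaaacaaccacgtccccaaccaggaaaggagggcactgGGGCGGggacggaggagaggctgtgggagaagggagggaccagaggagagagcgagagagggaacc
TIMP3 promoter: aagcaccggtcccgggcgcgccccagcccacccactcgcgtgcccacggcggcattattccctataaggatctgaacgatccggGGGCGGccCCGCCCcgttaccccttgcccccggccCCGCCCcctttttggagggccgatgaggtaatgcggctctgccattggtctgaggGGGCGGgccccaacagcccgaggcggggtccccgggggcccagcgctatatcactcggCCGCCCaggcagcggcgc

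The MMP14 stretch held 1 GC box and 56.8% G and C, and the TIMP3 stretch held 5 GC boxes and 72.4% G and C. SERPINE2, which fell, held 1 and 2 GC boxes in separate promoters (53.2% and 75.2% G and C). ADAMTS3 and ADAMTS19, which rose, held 1 GC box each (75.2% and 69.2% G and C). A link between GC boxes and direction was not tested. RefSeq promoters (250 bases before and 50 after the start) were at hand for 25 of the 36 tested genes, 31 promoters in all, and TIMP2 and MMP2 were not among them. GGGCGG on either strand occurred in 25 of the 31 (80.6%), against 65.0% of the promoters of all tested genes. Genes with more than 1 promoter count more than once in these shares, and no difference between them was tested. TGANTCA, the AP-1 motif, occurred in 2 of 31, those of ADAMTS12 and PLAUR (6.45%, against 5.13% of the promoters of tested genes). TGGGAA, the core bound by RBPJ, the DNA-binding partner of Notch, occurred in 5 of 31 (16.1%, against 22.1%), and GGAATG, bound by TEAD factors, in 4 of 31 (12.9%, against 11.5%). These are matches of letters on either strand, and each motif was searched on its own, so matches of different motifs may overlap.

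Among the MMPs, the membrane-anchored MMP14 rose and the soluble gelatinase MMP2 fell. MMP14 (ENSG00000157227, chromosome 14, 22836557 to 22849027, plus strand, GRCh38) encodes a membrane-type collagenase. Its level was 187, 184 and 196 CPM in the shGXYLT2 libraries, against 164, 161 and 159 CPM in the shControl libraries. All 3 shGXYLT2 libraries lay above all 3 shControl libraries. The means were 189 ± 6.22 CPM in shGXYLT2 and 161 ± 2.15 CPM in shControl (SD, n = 3 each), a log2 fold change of 0.23 (SE 0.0563, edgeR adjusted p = 0.012). The call was lost when shControl replicate 1, 2 or 3 was left out (adjusted p = 0.064, 0.061 and 0.067), and the adjusted p ran between 3.5e-05 and 0.067 over 14 alternatives.

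MMP2 (ENSG00000087245, chromosome 16, 55389700 to 55506691, plus strand) was at 14.9, 15.4 and 16.4 CPM in the shGXYLT2 libraries, against 21.0, 19.6 and 17.8 CPM in the shControl libraries. The groups did not overlap, and the shControl libraries were the more spread. The means were 15.6 ± 0.796 CPM in shGXYLT2 and 19.5 ± 1.61 CPM in shControl (SD, n = 3 each), a log2 fold change of -0.32 (SE 0.094, edgeR adjusted p = 0.032). This call stood in 8 of 14 alternatives and was lost without shGXYLT2 replicate 1 or 2 or shControl replicate 1 or 2 (adjusted p of 0.12, 0.062, 0.19 and 0.11; 0.0091 to 0.19 over the alternatives).

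The other 3 tested MMPs, MMP15, MMP16 and MMP24, are also membrane-type enzymes. MMP15 was at 28.6, 22.3 and 29.1 CPM in the shGXYLT2 libraries, against 21.5, 24.1 and 20.7 CPM in the shControl libraries. Replicate 2 of shGXYLT2 lay within the shControl range, and the log2 fold change of 0.27 (SE 0.102) did not pass (edgeR adjusted p = 0.089, and 0.01 without shGXYLT2 replicate 2; 7.1e-04 to 0.32 over the alternatives). MMP16 was at 119, 123 and 114 CPM in shGXYLT2, against 117, 122 and 128 CPM in shControl, with a log2 fold change of -0.05 (edgeR adjusted p = 0.69). MMP24 was low, at 1.8, 1.38 and 1.48 CPM in shGXYLT2 and 0.977, 1.17 and 0.836 CPM in shControl. The MMP24 groups did not overlap, but its log2 fold change of 0.66 carried an SE of 0.279 (edgeR adjusted p = 0.14). MMP24 shares its locus with MMP24OS on the opposite strand, which averaged 10.0 CPM in shGXYLT2 and 9.98 CPM in shControl. The libraries were stranded, but no source says if strand entered the counts, so reads of such partners may be mixed.

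Per length, MMP14 was the most abundant MMP in both groups. Its mean was 51.0 CPM per kb in shGXYLT2 and 43.6 CPM per kb in shControl, where length is the value the authors deposited for each gene. MMP16 followed with 10.3 CPM per kb in shGXYLT2 and 10.6 in shControl. MMP15 was at 6.56 CPM per kb in shGXYLT2 and 5.44 in shControl, and MMP2 at 4.43 in shGXYLT2 and 5.54 in shControl. MMP15 thus stood above MMP2 in shGXYLT2, while in shControl their means were close. MMP14 made up 69.7%, 70.4% and 70.6% of the summed MMP level per length in the shGXYLT2 libraries, against 67.2%, 66.1% and 66.7% in the shControl libraries.

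The remaining 17 MMP genes were not tested, and none had more than 16 counts in any library. Among them were the secreted enzymes most often measured in carcinoma. MMP9, the other gelatinase, had 3 counts over all 6 libraries, and MMP1, the interstitial collagenase, had 1. MMP7, MMP3, MMP8, MMP20, MMP26 and MMP27 had 0 counts throughout, which allows up to 3 counts per library, or 0.12 to 0.135 CPM in shGXYLT2 and 0.132 to 0.176 CPM in shControl, for counting error alone. The MMP genes that lie side by side on chromosome 11 (102520508 to 102955734, a stretch of 435 kb) numbered 9 (MMP7, MMP20, MMP27, MMP8, MMP10, MMP1, MMP3, MMP12 and MMP13). Together these 9 neighbours had 4 counts in the shGXYLT2 libraries and 2 in the shControl libraries. At this depth no difference in them was detectable. MMP21 and MMP25 held 50 and 36 counts over all libraries, MMP19 held 17 and MMP11 held 12, and MMP10, MMP12, MMP13, MMP17 and MMP28 held 8 or fewer each.

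**Figure D2:**
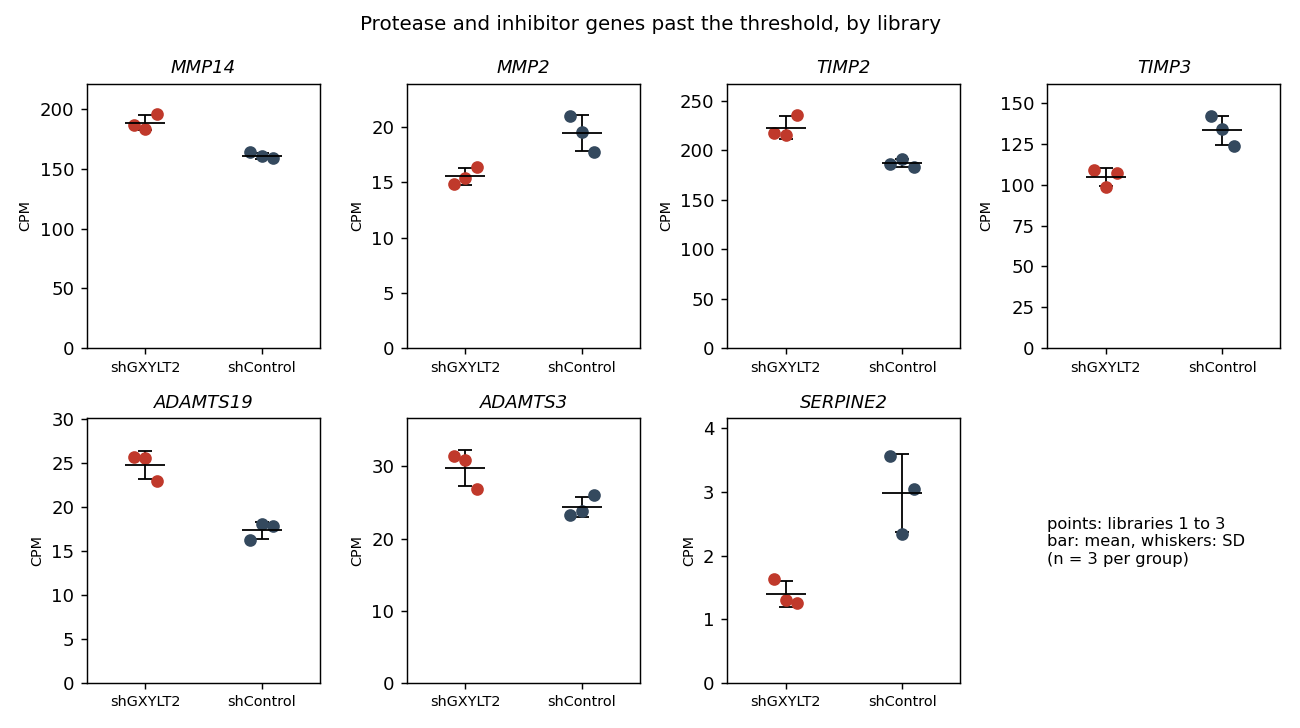
CPM of the 7 called genes in each library (points; bar and whiskers, mean and SD of 3 libraries; vertical axes start at 0), shGXYLT2 left of shControl. MMP14, TIMP2, ADAMTS19 and ADAMTS3 lie higher in shGXYLT2 and MMP2, TIMP3 and SERPINE2 lower, and the groups do not overlap in any of the 7.

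Of the inhibitors, TIMP2 rose and TIMP3 fell. TIMP2 (ENSG00000035862, chromosome 17, 78852977 to 78925387, minus strand) encodes the inhibitor that bridges MMP14 and precursor MMP2. Its level was 217, 215 and 236 CPM in the shGXYLT2 libraries, against 186, 191 and 183 CPM in the shControl libraries. Every shGXYLT2 library was above every shControl library, with replicate 3 the highest. The means were 223 ± 11.7 CPM in shGXYLT2 and 187 ± 4.16 CPM in shControl (SD, n = 3 each), a log2 fold change of 0.26 (SE 0.0582, edgeR adjusted p = 0.0064). Without shControl replicate 1 the adjusted p was 0.052, and it was 2.6e-05 to 0.052 over the 14 alternatives.

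TIMP3 (ENSG00000100234, chromosome 22, 32801701 to 32863043, plus strand) encodes an inhibitor that stays bound to the matrix and also blocks several ADAM and ADAMTS enzymes. It was at 109, 98.7 and 107 CPM in the shGXYLT2 libraries, against 142, 134 and 124 CPM in the shControl libraries. The groups did not overlap. The means were 105 ± 5.35 CPM in shGXYLT2 and 134 ± 9.12 CPM in shControl (SD, n = 3 each), a log2 fold change of -0.35 (SE 0.0656, edgeR adjusted p = 0.0014), and the call stood in 14 of 14 alternatives. TIMP3 lies inside SYN3, which is read from the opposite strand and averaged only 10.24 counts in shGXYLT2 and 7.14 counts in shControl.

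TIMP1, a soluble inhibitor that blocks membrane-type MMPs poorly, was at 20.5, 15.7 and 19.1 CPM in shGXYLT2, against 21.9, 23.2 and 22.6 CPM in shControl. Its groups did not overlap, but the log2 fold change of -0.29 (SE 0.0978) missed the threshold (edgeR adjusted p = 0.058, and 0.038 and 0.042 without shGXYLT2 replicates 1 and 3; 0.004 to 0.18 over the alternatives). TIMP4 and the membrane-anchored inhibitor RECK had 0 counts in all 6 libraries.

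The composition of the TIMP transcripts lay apart between the groups, while their sum overlapped. The summed level of TIMP1, TIMP2 and TIMP3 per length was 110, 101 and 113 CPM per kb in the shGXYLT2 libraries, against 110, 112 and 106 CPM per kb in the shControl libraries. TIMP2 took 54.2%, 58.4% and 57.4% of that sum in shGXYLT2, against 46.1%, 46.9% and 47.0% in shControl. The ratio of TIMP2 to TIMP3 per length was 2.51, 2.74 and 2.79 in shGXYLT2, against 1.64, 1.8 and 1.85 in shControl, with no overlap.

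The ratio of MMP14 to TIMP2 was 0.847, 0.846 and 0.818 in the shGXYLT2 libraries, against 0.869, 0.832 and 0.86 in the shControl libraries. The groups overlapped, so no shift between this enzyme and this inhibitor was seen. The ratio of MMP14 to MMP2 was 11.9, 11.3 and 11.3 in shGXYLT2, against 7.41, 7.79 and 8.51 in shControl, with no overlap. These ratios, and the shares of MMP14 and TIMP2 given above, were chosen after the single genes had been seen. They are given as a description, without a test.

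**Figure D3:**
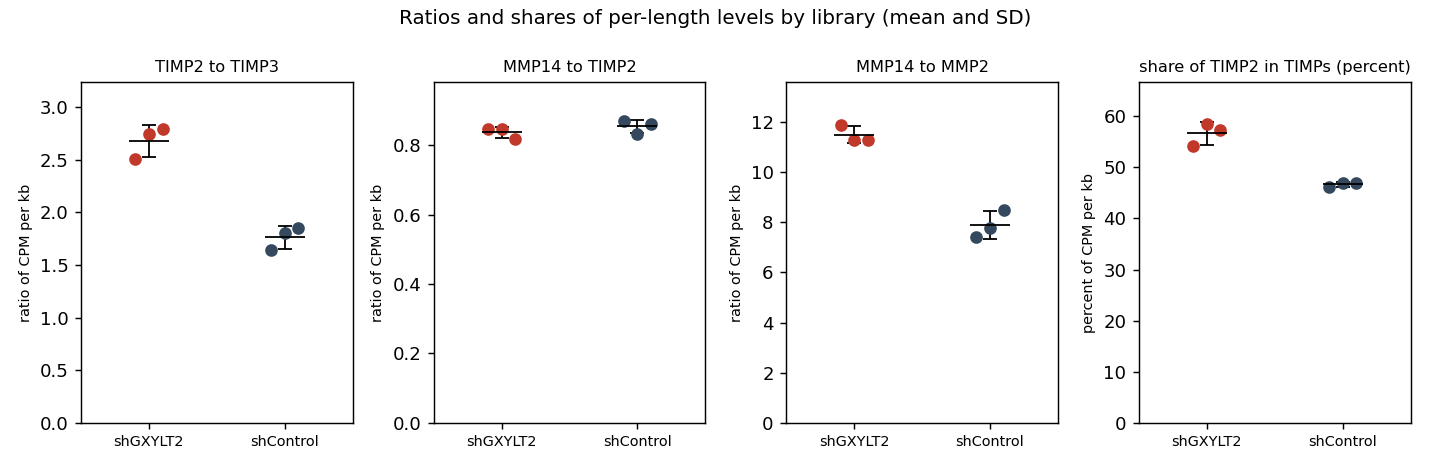
Ratios of CPM per kb (first 3 panels) and the share of TIMP2 in the summed TIMP level in percent (last panel), by library with mean and SD (n = 3 each), shGXYLT2 left of shControl. TIMP2 to TIMP3 averaged 2.68 in shGXYLT2 against 1.76 in shControl and MMP14 to MMP2 averaged 11.5 in shGXYLT2 against 7.9 in shControl, while MMP14 to TIMP2 averaged 0.837 in shGXYLT2 against 0.854 in shControl with overlapping libraries.

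No ADAM gene was called. Of 8 tested ADAM genes 0 passed edgeR's test, and 0 had an unadjusted p below 0.05. With 12.2% of all tested genes called, a count of 0 among 8 lies near that share. Over all 15693 tested genes 4005 had an unadjusted p below 0.05 in edgeR's test, and 8 genes are too few to set against that. DESeq2 called 0 of ADAM9, ADAM15 and ADAM22. ADAM9, a broadly expressed sheddase, was at 156, 158 and 134 CPM in the shGXYLT2 libraries, against 158, 147 and 150 CPM in the shControl libraries (log2 fold change -0.02, SE 0.0669, edgeR adjusted p = 0.89). ADAM15, which carries an integrin-binding motif, was at 109, 90.4 and 114 CPM in shGXYLT2, against 108, 111 and 112 CPM in shControl (log2 fold change -0.08, SE 0.0746, adjusted p = 0.56). In both genes 1 shGXYLT2 library was the lowest of the 6, replicate 3 for ADAM9 and replicate 2 for ADAM15, and the groups overlapped.

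ADAM22, ADAM23 and ADAM11 lack an active protease site and serve as neuronal adhesion receptors. ADAM22 was at 29.8, 31.2 and 28.2 CPM in shGXYLT2, against 26.1, 29.2 and 30.4 CPM in shControl. ADAM23 averaged 23.4 CPM in shGXYLT2 and 23.8 CPM in shControl, and ADAM11 averaged 7.14 CPM in shGXYLT2 and 8.21 CPM in shControl. Their edgeR adjusted p values were 0.72, 0.89 and 0.33. The pair of active sheddases ADAM9 and ADAM15 stood at 33.6 and 35.6 CPM per kb in shGXYLT2, against 34.1 and 37.6 CPM per kb in shControl, several times above the protease-dead members. ADAM5 and ADAM6 are annotated as pseudogenes. ADAM8, ADAM19 and ADAM32 averaged at most 1.08 CPM in either group. The other 13 ADAM rows were not tested, 7 of them at 0 counts throughout (ADAM2, ADAM5, 1 row of ADAM6, ADAM12, ADAM18, ADAM29 and ADAM30), and ADAM7, ADAM20, ADAM21, ADAM28, ADAM33 and the other row of ADAM6 reached at most 15 counts in a library.

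Of 15 tested ADAMTS genes 2 rose and 0 fell, where 5.31% of all tested genes rose and 6.84% fell. The share of rises lay above that of all tested genes, but it rests on 2 genes. ADAMTS19 (ENSG00000145808, chromosome 5, 129460265 to 129738683, plus strand), an ADAMTS protease linked to heart valve development, showed the largest rise of the whole set among called genes. It was at 25.7, 25.6 and 22.9 CPM in the shGXYLT2 libraries, against 16.2, 18.0 and 17.8 CPM in the shControl libraries. The groups were well apart. The means were 24.7 ± 1.58 CPM in shGXYLT2 and 17.3 ± 1.0 CPM in shControl (SD, n = 3 each), 42.8% higher by a log2 fold change of 0.51 (SE 0.0882, edgeR adjusted p = 6.2e-04), and the call stood in 14 of 14 alternatives. The antisense gene ADAMTS19-AS1 at its start averaged 1.93 CPM in shGXYLT2 and 1.27 CPM in shControl (edgeR adjusted p = 0.12), and its reads may be mixed with those of ADAMTS19 where they overlap.

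ADAMTS3 (ENSG00000156140, chromosome 4, 72280969 to 72569386, minus strand) removes the amino-terminal propeptide of procollagen and activates the growth factor VEGFC. It was at 31.5, 30.9 and 26.9 CPM in the shGXYLT2 libraries, against 23.3, 23.8 and 26.0 CPM in the shControl libraries. The lowest shGXYLT2 library lay just above the highest shControl library. The means were 29.8 ± 2.53 CPM in shGXYLT2 and 24.4 ± 1.39 CPM in shControl (SD, n = 3 each), a log2 fold change of 0.29 (SE 0.0855, edgeR adjusted p = 0.034). The call stood in 7 of 14 alternatives, and was lost without any single library other than shGXYLT2 replicate 3 (adjusted p of 0.14 and 0.089 without shGXYLT2 replicates 1 and 2, and 0.16, 0.13 and 0.057 without shControl replicates 1, 2 and 3; 0.0023 to 0.16 over the alternatives).

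The other procollagen amino-propeptidases did not pass. ADAMTS2 was at 12.5, 12.5 and 12.9 CPM in shGXYLT2, against 13.7, 13.2 and 14.6 CPM in shControl, without overlap, and ADAMTS14 averaged 2.58 CPM in shGXYLT2 and 3.31 CPM in shControl (edgeR adjusted p of 0.41 and 0.26). Both values lay lower in shGXYLT2, unlike ADAMTS3. ADAMTS3 made up 67.8%, 68.8% and 64.0% of the summed level of these 3 genes per length in shGXYLT2, against 57.7%, 60.7% and 59.7% in shControl. That share was chosen after the single genes had been seen, so it restates their changes and is given without a test.

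ADAMTS9, a protease of the proteoglycan versican and the most abundant ADAMTS gene, was at 57.5, 60.0 and 61.4 CPM in shGXYLT2, against 66.8, 65.6 and 64.8 CPM in shControl. Its groups did not overlap, but the log2 fold change of -0.14 (SE 0.0634) did not pass (edgeR adjusted p = 0.17). The proteoglycan-cutting ADAMTS1, ADAMTS4 and ADAMTS5 averaged 16.9, 7.48 and 7.33 CPM in shGXYLT2, against 18.4, 6.89 and 6.83 CPM in shControl, with adjusted p of 0.5, 0.61 and 0.74. ADAMTS20 averaged 8.69 CPM in shGXYLT2 and 8.21 CPM in shControl. The remaining tested members, ADAMTS7, ADAMTS10, ADAMTS12, ADAMTS13, ADAMTS15 and ADAMTS17, averaged at most 4.81 CPM in shGXYLT2 and 5.37 CPM in shControl. ADAMTS16 and ADAMTS18 had 0 counts throughout, ADAMTS8 had 1 count and ADAMTS6 at most 15 in a library.

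**Figure D4:**
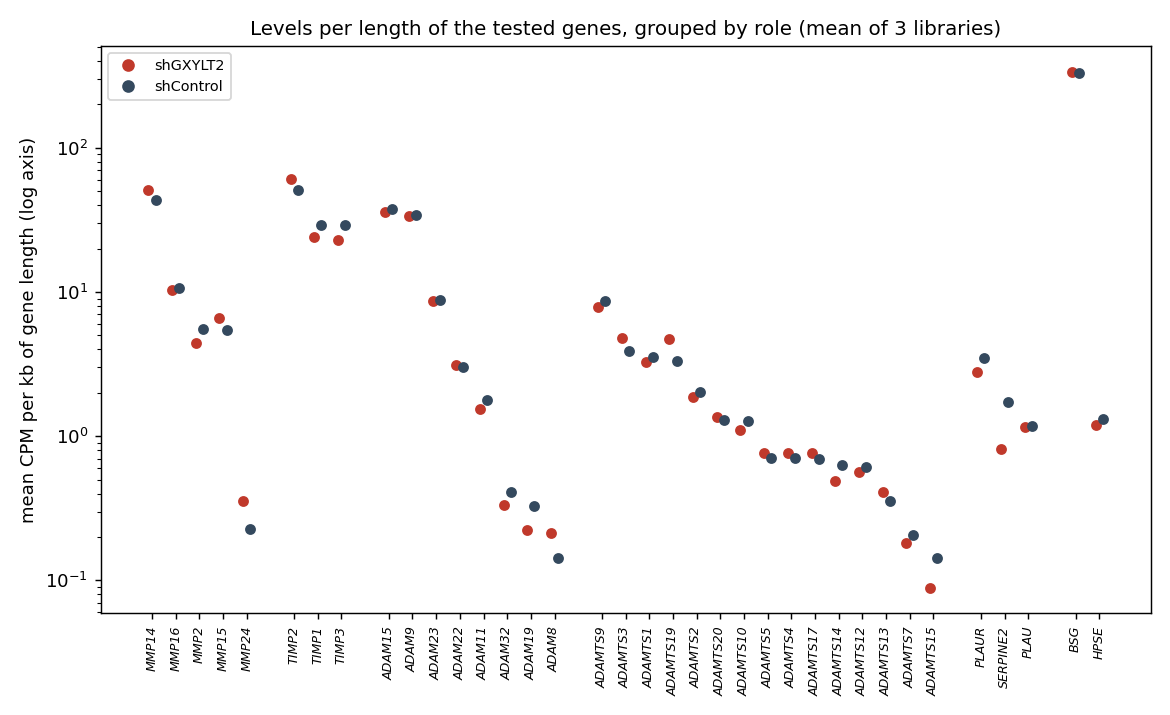
Mean CPM per kb of deposited gene length (log axis) of the 36 tested genes, grouped by role and ordered within a role by the shControl mean, shGXYLT2 left of shControl. BSG stands highest at 337 CPM per kb in shGXYLT2 against 329 in shControl, followed by TIMP2 and MMP14, and the lowest tested gene is ADAMTS15 at 0.0893 CPM per kb in shGXYLT2 against 0.143 in shControl.

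In the plasminogen system, where urokinase on its receptor turns plasminogen into plasmin, the inhibitor SERPINE2 fell. SERPINE2 (ENSG00000135919, chromosome 2, 223975112 to 224039319, minus strand) encodes protease nexin-1, a secreted blocker of thrombin and urokinase. It was at 1.64, 1.3 and 1.26 CPM in the shGXYLT2 libraries, against 3.56, 2.34 and 3.04 CPM in the shControl libraries, from 28 to 41 counts per shGXYLT2 library and 40 to 69 counts per shControl library. The groups did not overlap. The means were 1.4 ± 0.208 CPM in shGXYLT2 and 2.98 ± 0.612 CPM in shControl (SD, n = 3 each), a log2 fold change of -1.09 (SE 0.227, edgeR adjusted p = 0.0034). This was the largest change of the 36 genes, at a low level, and it stood in 14 of 14 alternatives.

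The enzymes and the receptor of the system did not pass. PLAU, urokinase itself, was at 2.88, 2.08 and 3.23 CPM in shGXYLT2, against 2.87, 2.75 and 2.6 CPM in shControl (edgeR adjusted p = 0.99). Its receptor PLAUR was at 3.48, 3.58 and 4.4 CPM in shGXYLT2, against 3.79, 6.15 and 4.27 CPM in shControl (adjusted p = 0.32). PLAT, tissue plasminogen activator, had at most 12 counts in a library and was not tested.

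BSG encodes basigin, a membrane glycoprotein known as an inducer of MMPs in neighbouring cells and as a chaperone of lactate transporters. It was the most abundant gene of the set, at 663, 624 and 681 CPM in shGXYLT2, against 636, 670 and 612 CPM in shControl. The groups overlapped (log2 fold change 0.04, SE 0.0568, edgeR adjusted p = 0.74). HPSE, the heparanase that cuts heparan sulfate chains, was at 5.39, 4.76 and 6.47 CPM in shGXYLT2, against 6.38, 6.27 and 5.81 CPM in shControl (adjusted p = 0.57).

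Genes that act with these proteases were followed as a list of 62, of which 45 were tested. Of these 5 rose (11.1%, against 5.31% of all tested genes) and 4 fell (8.89%, against 6.84%). The share of falls lay near that of all tested genes. Their median log2 fold change was -0.019, and offsets for GC content and length gave 17 calls in place of 9. Among the inhibitors and enzymes that rose was SPOCK3, a testican reported to block activation of precursor MMP2 by membrane-type MMPs. SPOCK3 was at 6.23, 6.72 and 5.7 CPM in shGXYLT2, against 2.24, 1.87 and 2.07 CPM in shControl (log2 fold change 1.59, SE 0.166, edgeR adjusted p = 2.2e-06). The cysteine protease CTSS averaged 10.4 CPM in shGXYLT2 and 6.07 CPM in shControl (adjusted p = 3.2e-04), and SPINT2, an inhibitor of membrane serine proteases, averaged 1.24 CPM in shGXYLT2 and 0.364 CPM in shControl (adjusted p = 0.0035). SPINT2 had 24, 30 and 34 counts in shGXYLT2 and 7, 5 and 9 counts in shControl. It passed the filter on low counts only through the shGXYLT2 libraries, so its place among the 5 rises supports nothing, and it was not tested under a filter of 1 CPM. TLL1, a tolloid-like protease of procollagen, averaged 7.18 CPM in shGXYLT2 and 4.67 CPM in shControl (adjusted p = 0.0077, and 0.064 without shControl replicate 1; 0.0012 to 0.064 over the alternatives). ADAMTSL3, an ADAMTS-like protein without a protease domain, averaged 12.5 CPM in shGXYLT2 and 9.64 CPM in shControl (adjusted p = 0.037, and past the threshold in 6 of 14 alternatives).

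The largest fall of the list was that of MME, the cell-surface peptidase neprilysin. MME was at 38.9, 38.5 and 32.7 CPM in shGXYLT2, against 77.3, 72.4 and 73.4 CPM in shControl (log2 fold change -1.02, SE 0.0745, edgeR adjusted p = 1.6e-08). The heparan sulfate proteoglycan SDC2 averaged 74.1 CPM in shGXYLT2 and 105 CPM in shControl, and the receptor LRP8 averaged 48.9 CPM in shGXYLT2 and 68.8 CPM in shControl (adjusted p of 1.8e-05 and 8.0e-05). The integrin chain ITGB3 averaged 1.11 CPM in shGXYLT2 and 2.08 CPM in shControl (adjusted p = 0.019, and past the threshold in 9 of 14 alternatives). FURIN, the convertase that activates precursor MMP14, averaged 11.8 CPM in shGXYLT2 and 11.7 CPM in shControl (adjusted p = 0.94). LRP1, which clears protease and inhibitor complexes, averaged 66.7 CPM in shGXYLT2 and 70.1 CPM in shControl (adjusted p = 0.57). The sheddases ADAM10 and ADAM17 averaged 128 and 47.7 CPM in shGXYLT2, against 130 and 41.7 CPM in shControl, and neither passed (adjusted p of 0.85 and 0.092). PLG and DPP4 were among the 17 genes too low to be tested.

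Transcription factors known to act on MMP promoters were lower where they changed. Of 17 tested factors 0 rose and 5 fell (29.4%, against 6.84% of all tested genes), with a median log2 fold change of -0.091. This list, like that of the partner genes, was chosen with earlier results of these libraries known. Its share of falls therefore gives no independent support. ETV5, an ETS factor, was at 6.23, 6.23 and 5.66 CPM in shGXYLT2, against 13.4, 10.3 and 11.9 CPM in shControl (log2 fold change -0.97, SE 0.125, edgeR adjusted p = 2.8e-05). The AP-1 subunit JUN averaged 8.74 CPM in shGXYLT2 and 14.0 CPM in shControl, and ETS1 averaged 47.9 CPM in shGXYLT2 and 65.7 CPM in shControl (adjusted p of 2.8e-04 and 1.5e-04). NFKB1 averaged 41.1 CPM in shGXYLT2 and 52.5 CPM in shControl (adjusted p = 0.0032). ETS2 had a log2 fold change of -0.29 (SE 0.0834, adjusted p = 0.028, and past the threshold in 7 of 14 alternatives). FOS was at 2.76, 3.14 and 2.43 CPM in shGXYLT2, against 1.78, 2.87 and 1.58 CPM in shControl, with overlapping groups (adjusted p = 0.25). The adjusted p of ETS2 ran from 0.0031 to 0.16 over the alternatives.

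The word GACTCAT was looked up in the 3' untranslated regions of the proteases. It was chosen from earlier results of these libraries, in which genes holding it were more often lower, so it gives no independent support. Among 12558 tested genes with a searched region 21.9% of those with the word fell, against 6.35% of those without it. Of the 36 tested proteases and inhibitors 4 held it (11.1%, against 9.1% of all), namely MMP16, ADAM9, ADAMTS12 and ADAMTS3. Of these 4 genes 0 fell and 1, ADAMTS3, rose. These 4 genes are too few to set against the 21.9%. The sites of ADAMTS3 (chromosome 4, base 184 of a region of 2167 bases) and ADAMTS12 (chromosome 5, base 1470 of 3653 bases) are examples. They are shown from GENCODE release 29 with the word in capitals, and the other sites are not shown.
ADAMTS3 site: gttctgcattGACTCATttaccagaat
ADAMTS12 site: catattttctGACTCATgcacagatac

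ADAMTS12 was at 3.96, 5.25 and 5.21 CPM in shGXYLT2, against 5.58, 4.92 and 5.1 CPM in shControl, with overlapping groups (edgeR adjusted p = 0.7). The 3 called falls, MMP2, TIMP3 and SERPINE2, did not hold the word in the region searched.

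**Figure D5:**
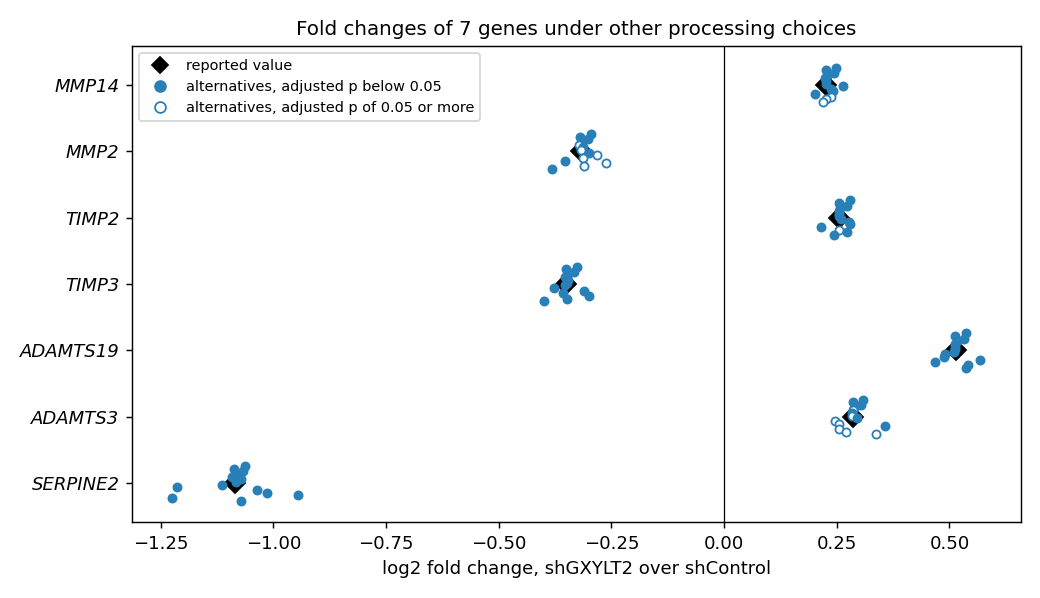
Log2 fold change of shGXYLT2 over shControl (horizontal axis) for the 7 called genes, as reported (diamonds) and under 14 other processing choices (circles, open where the adjusted p was 0.05 or more). TIMP3, ADAMTS19 and SERPINE2 have filled circles only, TIMP2 has 1 open circle, MMP14 has 3, MMP2 has 6 and ADAMTS3 has 7, and none of the 7 genes changes sign.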

How the data were processed

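Stranded mRNA libraries were prepared, per the labels' protocols. The submitters' processing notes name fastp, HISAT2, StringTie and GRCh38.p13, without versions. The annotation, the counting step and its use of strand were not stated. The estimated counts were used as deposited in 1 table, where 12.3% of values were not whole. A gene length, whose definition no source states, served only for levels per kb and length offsets. Counts were rounded and analysed in R 4.3.3 with edgeR 4.0.16: filterByExpr by group, TMM factors and a robust quasi-likelihood fit on all 6 libraries with no covariate, over 15693 genes, with Benjamini-Hochberg adjustment and a threshold of 0.05. The SE is the log2 fold change divided by the root of the F statistic. Alternatives used limma 3.58.1, DESeq2 1.42.0 and, for offsets, mgcv 1.9.3. The procedure was tested on simulated counts.

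Positions and 3' untranslated regions of at least 100 bases came from GENCODE release 29 (GRCh38), and promoters from RefSeq (GRCh38.p14). The groups came from the sample titles. The labels name no batch. The genes, lists and rules were chosen with earlier results of these data known. Every gene is accounted for; values by library are given for called genes and the 3 most abundant of each role. From the list of partners up to 5 rises and 5 falls are named, mostly by group means, and other genes were chosen after their values were seen. Limits from a count of 0 use 3 counts per library and cover counting error only. Chi-square statistics per degree of freedom were at least 1.93 between any 2 libraries, so none was taken as a copy.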

Additional observations from a re-analysis of the deposited data

How the results depend on the processing

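Among 14 alternatives the rises of ADAMTS19 and the falls of TIMP3 and SERPINE2 stayed past the threshold, and none of the 7 called genes changed sign. The counts of 4 rises and 3 falls became 1 to 4 rises and 2 to 4 falls with 1 library left out, 3 and 2 with DESeq2, and 5 and 4 with offsets for GC content and length, which added MMP15 (log2 fold change 0.35) and TIMP1 (-0.345). Over all genes 1907 were called, 960 to 2347 with 1 library left out (990, 1152 and 960 without shControl replicates 1, 2 and 3) and 3127 with those offsets, which also raised the calls among 45 partner genes to 17, against 9; leaving out 1 library gave 6 to 13. Upper-quartile factors gave 1024 rises and 963 falls over all genes, against 833 and 1074, and testing without a filter gave 1038 and 1057; the direction of every called protease gene was the same under both.

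Genes near 0 changed sign without being called: ADAM9 was at 0.001 with upper-quartile factors and -0.066 to 0.054 over all alternatives, PLAU at 0.016 with those factors, 0.011 without a filter and -0.139 to 0.155 over all alternatives, MMP16 at 0.015 with the offsets, ADAM15 at 0.013 without shGXYLT2 replicate 2 (-0.142 to 0.013 with 1 library left out), and ADAM22 at -0.001 without shControl replicate 1 (-0.001 to 0.109 with 1 library left out). The cause was not tested.

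Titles number the libraries 1 to 3 in each group. The sample descriptions number some libraries differently, and the title numbers are used here. Deviations from the group means correlated at 0.00519, -0.0429 and -0.0234 for equal numbers, and not every library correlated best with its own number, so the numbers were not taken as pairs; with the replicate number as a block 3 genes rose and 2 fell, 1471 genes were called in all, and ADAMTS3 and MMP2 had adjusted p of 0.066 and 0.057. Depth limits the low genes. Among tested genes ADAM8 and ADAM19 rest on 6 to 26 counts per library. ADAMTS15 rests on 8 to 20, ADAM32 on 15 to 23 and ADAMTS7 on 19 to 28. The 17 MMPs that were not tested had at most 16.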
